A study of Homo sapiens with 6 samples.

Results

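The subunits and regulators of the proteasome were examined in 22Rv1 cells. They were taken by symbol, as every gene in the series PSMA, PSMB, PSMC, PSMD, PSME or PSMF followed by a number whose counts summed to at least 60 over the 6 libraries, with the interferon-inducible PSMB8 and PSMB9 left out by name. The rule gave 40 genes of 29804 symbols. They comprised 14 subunits of the 20S core (7 alpha and 7 beta), 17 subunits of the 19S regulator, 3 assembly chaperones of the 19S regulator, 4 activators, the inhibitor PSMF1 and the inducible beta subunit PSMB10. PSMB10 had the lowest sum inside the rule, at 2553 counts, while the tissue-specific PSMA8 and PSMB11 fell outside it with 0 counts in every library. A count of 0 allows up to 3 counts, or 0.0850 to 0.141 CPM (counts scaled to the library total) depending on the library, and this limit covers counting error only.

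The proteasome degrades proteins that carry chains of ubiquitin. Its barrel-shaped 20S core is built of stacked alpha and beta rings, with the protease sites of PSMB5, PSMB6 and PSMB7 facing inwards. The 19S regulator caps the barrel, where its lid removes ubiquitin and a ring of ATPases in its base unfolds the substrate and feeds it into the core. Other caps, the PSME proteins, open the core without ubiquitin. In many cells the subunit genes are transcribed together, and the membrane-tethered transcription factor NRF1 (gene NFE2L1) raises them when proteasome activity falls short.

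22Rv1 is a human prostate carcinoma epithelial cell line, and all groups were made from it with genotype given as WT. WT cells received no drug and were collected at week 0. Age matched (AM) cells were cultured for 6 weeks without drug. 6WP cells were exposed to 1 µg/ml of phleomycin, a radiomimetic drug that breaks DNA, for 1 hour a day on week days over 6 weeks. Each group had 2 biological replicates, and p-values measure only the spread between these libraries. Since WT cells were harvested at another time than AM cells, time in culture and day of harvest cannot be told apart. Library totals ranged from 21222201 to 35311945 counts. Replicates of 6WP cells differed more than the others over all genes, with a chi-square divided by its degrees of freedom of 67.4, against 9.46 for AM and 5.85 for WT cells. The summed level of 8 prostate luminal markers was 2872 and 3058 CPM in WT, 1914 and 2280 in AM and 2402 and 3283 in 6WP cells. Basal markers summed to at most 0.179 CPM with KRT5 at 0 in every library, leukocyte markers to at most 0.0705 CPM with PTPRC, CD74 and CD3E at 0, and fibroblast markers to between 1.27 and 2.99 CPM.

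Proteasome transcripts were higher in AM cells than in WT or 6WP cells. Together the 40 genes made up 0.614% and 0.584% of all counts in WT, 0.799% and 0.815% in AM and 0.626% and 0.537% in 6WP cells. Relative to the mean of the WT libraries, the median member stood at a log2 difference of 0.45 in AM replicate 1, 0.54 in AM replicate 2, 0.03 in 6WP replicate 1 and −0.13 in 6WP replicate 2. For 34 of the 40 genes both AM libraries lay above all 4 other libraries, with PSMD4, PSMD5, PSMD9, PSME1, PSME4 and PSMF1 as the exceptions. The share of all tested genes with this order was not counted. Pair by pair, both AM libraries lay above both WT libraries in 36.9% of all tested genes. Both 6WP libraries lay below both AM libraries in 28.5% of them. In bulk RNA, more transcript per cell and a different mix of cells cannot be told apart. The summed luminal markers lay lower in both AM libraries than in the other 4, and the part of this in the result was not tested.

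To ask what 6 weeks of culture alone changed, AM was compared with WT cells in all 14672 genes that passed the filter on low counts, which included all 40 members. In the edgeR quasi-likelihood test 28 members rose and 0 fell at an adjusted p under 0.05, while 17.7% of all tested genes were called, 7.74% higher and 9.93% lower. Their log2 fold changes ran from 0.37 to 1.03, with adjusted p between 0.00366 and 0.0499. The median over all 40 members was a log2 fold change of 0.49, beside −0.00 over all tested genes. Both AM libraries lay above both WT libraries for 38 members and below for PSME1, and 36.9% of all tested genes lay above in the same way. The 12 members that were not called were PSMA1, PSMB4, PSMB5, PSMC5, PSMD4, PSMD5, PSMD7, PSMD9, PSMD10, PSME1, PSME4 and PSMF1, with adjusted p from 0.0535 to 0.77. The count depended on the libraries. No member was called without WT replicate 1, WT replicate 2 or AM replicate 2 (0 calls each), and 1 (PSMA6) without AM replicate 1, although the median of the 20S core stayed between 0.44 and 0.58 with any library left out. Without one of these 4 libraries, calls over all tested genes also dropped, from 2593 to between 67 and 137. The count of members was 16 with upper quartile normalization and 14 with library size only, where 17.2% and 16.3% of all tested genes were called.

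To ask how phleomycin-treated cells differed from cells of the same age, 6WP was compared with AM cells. This comparison shares the AM libraries with the previous one. Here 28 members fell and 0 rose, with 21.3% of all tested genes called and 9.68% called lower. Log2 fold changes of the called members ran from −1.02 to −0.37, with adjusted p between 0.00203 and 0.0453 in edgeR's quasi-likelihood test. The median over the members was −0.56, beside 0.05 over all tested genes. In 35 members both 6WP libraries lay below both AM libraries, as did 28.5% of all tested genes, and in 5 the groups overlapped. Nearly all calls were lost without AM replicate 1 or AM replicate 2, among the members and over all genes. Without a WT replicate, calls dropped both among the members and over all genes. The median of the 20S core stayed between −0.72 and −0.45 with any library left out. A fit to only the groups compared called 17 members, and 9.07% of all tested genes.

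**Figure D1:**
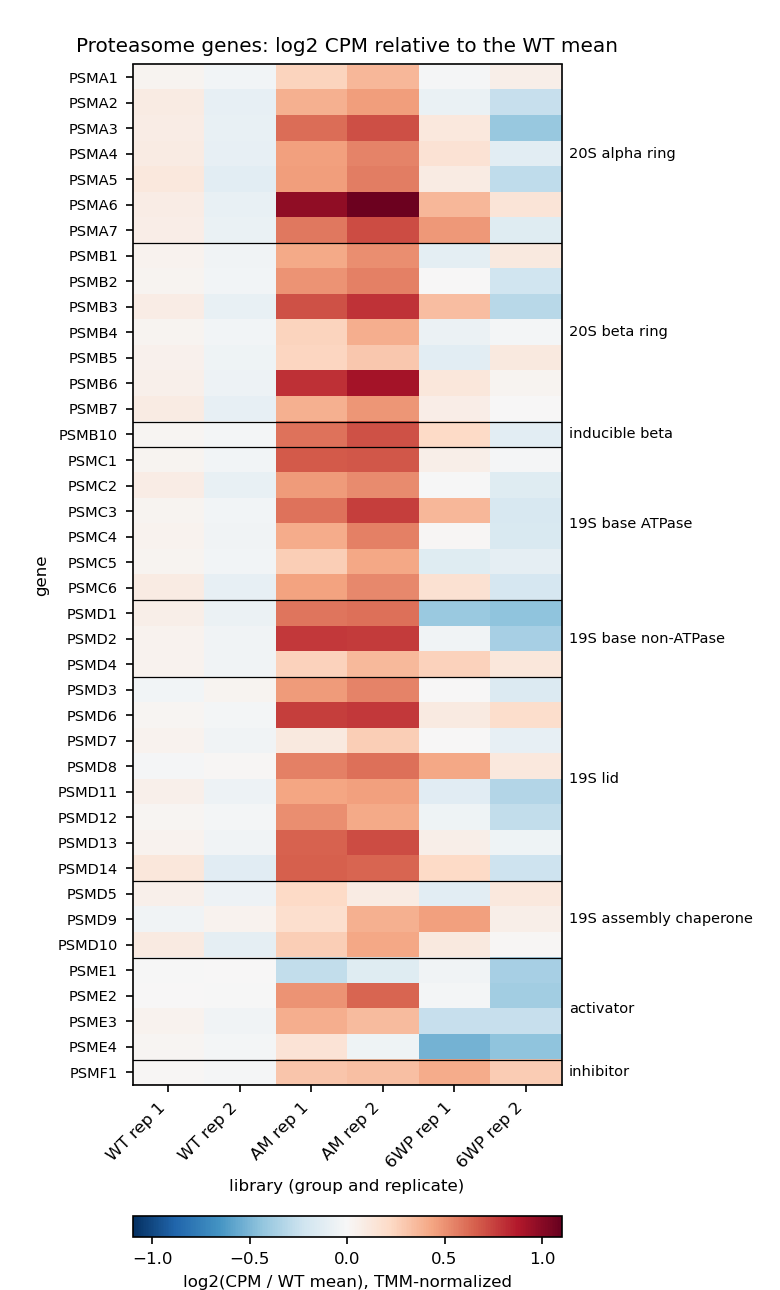
Level of each of the 40 genes in each of the 6 libraries, as the log2 difference of its TMM normalised CPM from the mean of the WT libraries, ordered by role with lines between classes. The AM columns are above WT in most rows, including all rows of the 20S core, and PSME1 and PSME4 near the bottom are exceptions.

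**Figure D2:**
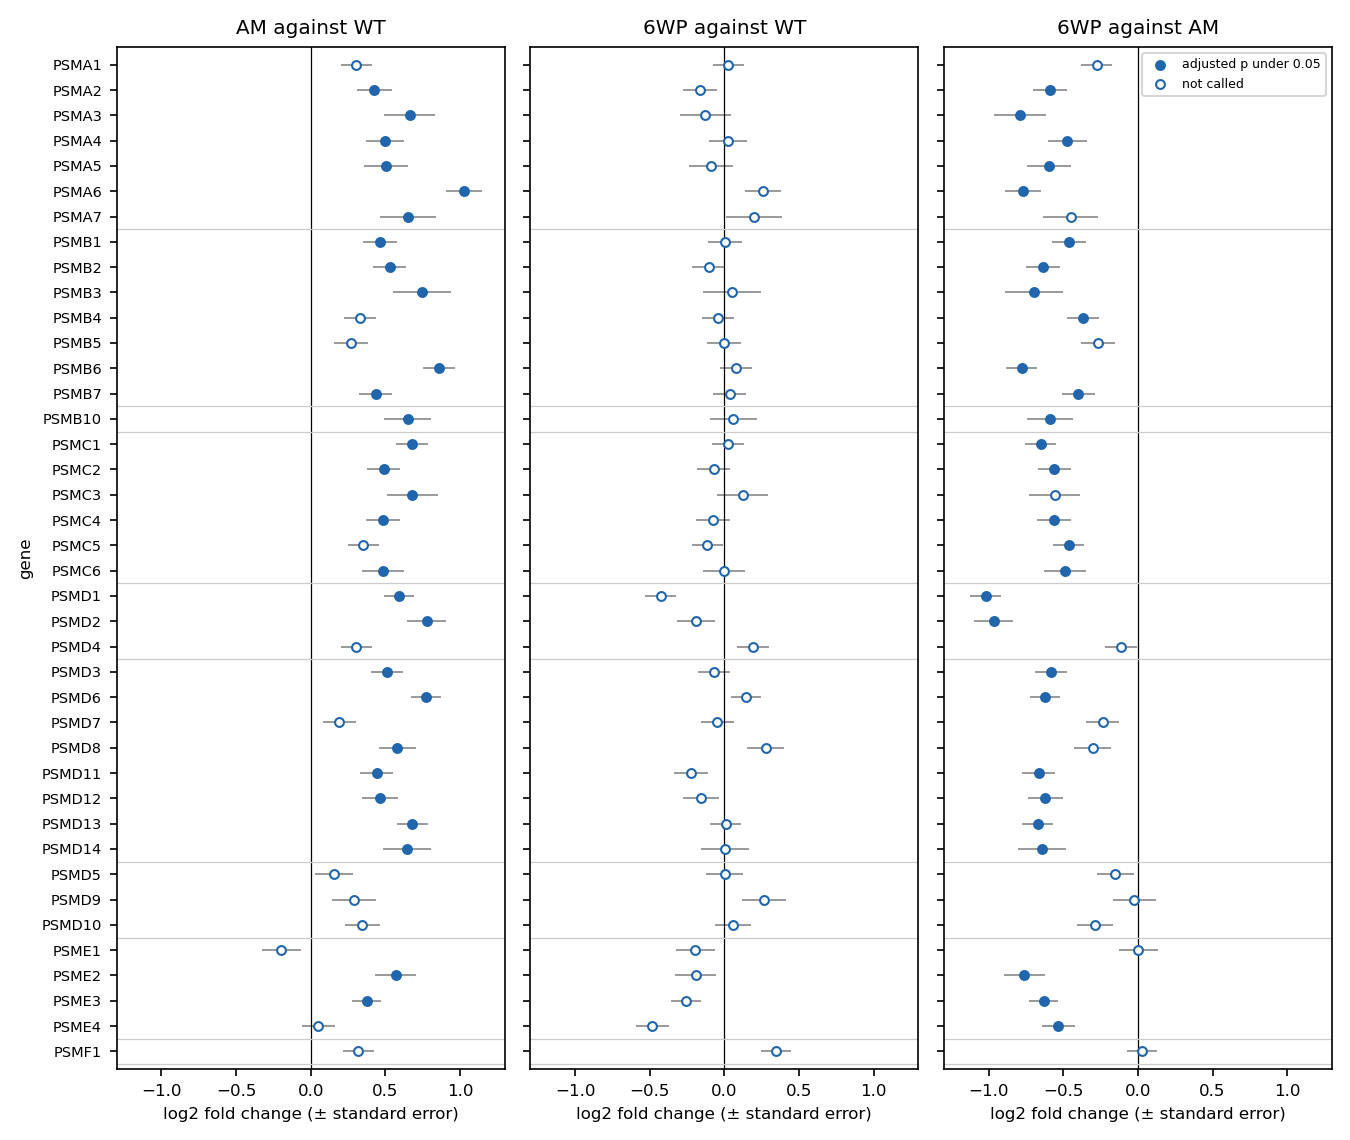
Log2 fold change with its standard error for the 40 genes in each of the 3 comparisons, from edgeR's quasi-likelihood fit to all 6 libraries. Filled points have an adjusted p under 0.05: 28 of 40 above 0 in AM against WT, 0 in 6WP against WT, and 28 below 0 in 6WP against AM.

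Because the subunit genes moved together, their promoters were searched for the core of the antioxidant response element, TGACNNNGC, which NRF1 and related factors can bind. RefSeq promoters of GRCh38.p14, from 250 bases before to 50 after the start, were matched for 35 of the 40 genes, with no entry for PSMA7, PSMB1, PSMB6, PSMB7 or PSMD4. The core occurred on either strand in 10 of the 35 (28.6%) and in 3702 of all 27305 promoters (13.6%). All promoters here include those of genes not expressed in these cells, and a comparison limited to expressed genes was not made. CCAAT, searched in the same way and able to share end bases with the core, occurred in 16 of the 35 (45.7%) and in 35.7% of all promoters. Of the 10 genes with the core, 6 rose in AM against WT and 7 fell in 6WP against AM, with a median log2 fold change of 0.47 in AM against WT. Of the 25 without it, 18 rose and 18 fell, with a median of 0.50. Over all tested genes, 7.74% were called higher in AM against WT and 9.68% lower in 6WP against AM. A match is a description of letters, not of binding. Windows are given for 3 called subunits of different roles and for the neighbouring pair PSME1 and PSME2, of which only PSME2 was called. They are printed 5′ to 3′ on the strand of the gene, with the core in capitals. They lie at chr17:38752612-38752671 on the plus strand for PSMB3, chr17:39980745-39980804 on the plus strand for PSMD3, chr17:67366708-67366767 on the minus strand for PSMD12, chr14:24136083-24136142 on the plus strand for PSME1 and chr14:24146751-24146810 on the minus strand for PSME2. The first base of the core lies 104, 37, 165, 86 and 175 bases before the RefSeq start in that order. RefSeq starts can differ from the gene positions given below, which are from GENCODE. The PSME2 window lies inside the GENCODE span of that gene (chr14:24143362-24147570).
PSMB3: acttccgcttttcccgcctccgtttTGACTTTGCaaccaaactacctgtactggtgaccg
PSMD3: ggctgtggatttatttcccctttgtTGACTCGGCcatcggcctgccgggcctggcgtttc
PSMD12: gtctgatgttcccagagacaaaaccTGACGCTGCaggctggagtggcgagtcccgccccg
PSME1: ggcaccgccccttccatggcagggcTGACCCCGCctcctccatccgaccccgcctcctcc
PSME2: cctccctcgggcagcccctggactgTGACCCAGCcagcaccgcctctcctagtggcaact

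The alpha subunits form the outer rings of the core and its gate. In AM against WT 6 of the 7 rose, all but PSMA1, and in 6WP against AM 5 fell, all but PSMA1 and PSMA7. Beside these and the subunit counts below, 7.74% of all tested genes were called higher in AM against WT. In 6WP against AM 9.68% were called lower. PSMA6 (chr14:35278633-35317493) had the largest rise of all members: its levels were 173 and 155 CPM in WT, 322 and 347 in AM and 211 and 181 in 6WP cells. The AM libraries stood well apart, and the 6WP libraries lay between them and WT. PSMA6 rose 2.04-fold in AM against WT (log2 1.03, standard error 0.12, adjusted p = 0.00366) and fell by 0.77 on the log2 scale in 6WP against AM (adjusted p = 0.00681). The genome holds 4 annotated pseudogenes of it, to which reads could be assigned. PSMA2 (chr7:42916828-42932185) was at 252 and 224 CPM in WT, 312 and 328 in AM and 226 and 199 in 6WP cells. PSMA3 (chr14:58244843-58272012) was at 98.1 and 88.0 in WT, 142 and 152 in AM and 101 and 69.5 in 6WP cells. For both genes the AM libraries lay above all others and the 6WP libraries overlapped WT. PSMA2 rose 1.34-fold in AM against WT (adjusted p = 0.0413) and fell by 0.59 on the log2 scale in 6WP against AM (adjusted p = 0.0135). The corresponding values of PSMA3 were 1.58-fold (adjusted p = 0.0358) and −0.79 (adjusted p = 0.0185). PSMA1, the alpha subunit that passed neither test, had a log2 fold change of 0.30 in AM against WT (adjusted p = 0.0765) and −0.28 in 6WP against AM (adjusted p = 0.0911).

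Of the 7 constitutive beta subunits 5 rose in AM against WT and 6 fell in 6WP against AM. The 3 catalytic subunits ranged from 1.2-fold to 1.81-fold in AM against WT. PSMB6 (chr17:4796144-4798502), which carries the caspase-like activity, was at 127 and 118 CPM in WT, 213 and 230.1 in AM and 133 and 125 in 6WP cells. PSMB7 (chr9:124353465-124415444), which carries the trypsin-like activity, was at 121 and 107 in WT, 149 and 159 in AM and 119.5 and 114 in 6WP cells. PSMB5 (chr14:23016543-23035230), the chymotrypsin-like subunit bound by bortezomib, was at 212 and 198 in WT, 242 and 252 in AM and 189 and 220.3 in 6WP cells. All 3 were highest in both AM libraries. PSMB6 rose 1.81-fold (log2 0.86, standard error 0.11, adjusted p = 0.00429) and PSMB7 1.35-fold (adjusted p = 0.0328), whereas PSMB5 was at 1.2-fold with an adjusted p of 0.134. In 6WP against AM, PSMB6 fell by 0.78 (adjusted p = 0.00462) and PSMB7 by 0.40 (adjusted p = 0.0378) on the log2 scale, and PSMB5 stood at −0.27 (adjusted p = 0.127). Whether PSMB5 differed from PSMB6 in its response was not tested. Among the non-catalytic beta subunits, PSMB2 (chr1:35599541-35641526) was at 162 and 156 CPM in WT, 225 and 234 in AM and 159 and 136.5 in 6WP cells. It was higher in both AM libraries than elsewhere, with log2 fold changes of 0.53 in AM against WT (adjusted p = 0.0199) and −0.63 in 6WP against AM (adjusted p = 0.00987).

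PSMB10 (chr16:67934506-67936864) replaces PSMB7 in the immunoproteasome, the form made after interferon signalling. It was at 13.4 and 13.05 CPM in WT, 20.1 and 21.5 in AM and 15.4 and 12.2 in 6WP cells. As with the constitutive subunits, both AM libraries lay above the rest. PSMB10 rose 1.57-fold in AM against WT (adjusted p = 0.0289) and fell by 0.59 on the log2 scale in 6WP against AM (adjusted p = 0.0327). The other inducible subunits, outside the rule, were low. PSMB8, which replaces PSMB5, had 39 and 46 counts in WT, 11 and 14 in AM and 38 and 18 in 6WP cells, and fell by 2.12 on the log2 scale in AM against WT (standard error 0.44, adjusted p = 0.0177). PSMB9, which replaces PSMB6, was at 1.92 and 2.21 CPM in WT, 1.21 and 1.65 in AM and 2.24 and 1.13 in 6WP cells. Both AM libraries of PSMB9 lay below both WT libraries and the 6WP libraries overlapped both groups, with an adjusted p of 0.361 in AM against WT. PSMB8 and PSMB9 overlap each other on opposite strands, and PSMB8 lost its call without any 1 of the WT or AM libraries (adjusted p from 0.103 to 0.162).

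In the base of the 19S regulator, 5 of the 6 ATPases rose in AM against WT, all but PSMC5, and 5 fell in 6WP against AM, all but PSMC3. PSMC1 (chr14:90256527-90275429), whose tail helps to open the gate of the core, was at 43.5 and 41.8 CPM in WT, 67.9 and 68.6 in AM and 44.5 and 42.4 in 6WP cells. The 6WP libraries overlapped the WT libraries, and the AM libraries stood apart. It rose 1.60-fold in AM against WT (adjusted p = 0.00786) and fell by 0.65 on the log2 scale in 6WP against AM (adjusted p = 0.00728). PSMC1 has 13 annotated pseudogenes, the most of any member, so its counts may be split among copies. PSMC2 (chr7:103328570-103370346) was at 189 and 168 CPM in WT, 246.5 and 255 in AM and 178 and 162 in 6WP cells, and it shares exon sequence with PMPCB on the same strand. PSMC4 was at 98.5 and 93.2 in WT, 127 and 141 in AM and 96.4 and 85.4 in 6WP cells. PSMC5 was at 151 and 145.5 in WT, 179 and 199 in AM and 135.5 and 139 in 6WP cells. In all 3 genes AM was the highest group without overlap, and PSMC5 was the one whose 6WP libraries also lay below both WT libraries. Log2 fold changes in AM against WT were 0.49 for PSMC2 (adjusted p = 0.0233), 0.48 for PSMC4 (adjusted p = 0.0272) and 0.35 for PSMC5 (adjusted p = 0.0535). In 6WP against AM they were −0.56 for PSMC2 (adjusted p = 0.0133), −0.56 for PSMC4 (adjusted p = 0.0148) and −0.46 for PSMC5 (adjusted p = 0.0201).

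The base also holds the large scaffold proteins PSMD1 and PSMD2 and the ubiquitin receptor PSMD4. PSMD1 (chr2:231056845-231173116) was at 159 and 145 CPM in WT, 228 and 231 in AM and 115 and 112 in 6WP cells. The 3 groups did not overlap, and 6WP was the lowest. PSMD1 rose 1.51-fold in AM against WT (log2 0.59, standard error 0.10, adjusted p = 0.0103) and had the largest fall of all members in 6WP against AM, by 1.02 on the log2 scale (standard error 0.10, adjusted p = 0.00203). PSMD2 (chr3:184299198-184309050), which docks proteins that deliver ubiquitylated substrates, was at 370 and 351 CPM in WT, 617 and 615 in AM and 352 and 280 in 6WP cells. The AM libraries were close to each other and far above the rest, and the 6WP libraries overlapped WT. It rose 1.71-fold in AM against WT (adjusted p = 0.00944) and fell by 0.97 on the log2 scale in 6WP against AM (adjusted p = 0.00445). PSMD4 was called in neither comparison, with log2 fold changes of 0.31 (adjusted p = 0.0821) and −0.11 (adjusted p = 0.468).

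Of the 8 lid subunits 7 rose in AM against WT, all but PSMD7, and 6 fell in 6WP against AM, all but PSMD7 and PSMD8. PSMD7 and PSMD14 form the pair that removes ubiquitin, with the active site in PSMD14. PSMD14 rose by a log2 fold change of 0.64 in AM against WT (adjusted p = 0.0322) and fell by 0.64 in 6WP against AM (adjusted p = 0.028), while PSMD7 was at 0.19 (adjusted p = 0.251) and −0.24 (adjusted p = 0.157). PSMD6 (chr3:64010550-64024010) was at 91.0 and 88.7 CPM in WT, 152.5 and 154 in AM and 96.3 and 103 in 6WP cells. PSMD13 (chr11:236966-252984) was at 135.5 and 129 in WT, 207 and 217 in AM and 138 and 128 in 6WP cells. In both genes the AM libraries lay far above the other 4, and the 6WP libraries were slightly above WT for PSMD6 and around it for PSMD13. PSMD6 rose 1.71-fold in AM against WT (adjusted p = 0.00488) and fell by 0.62 in 6WP against AM (adjusted p = 0.00728). PSMD13 rose 1.60-fold (adjusted p = 0.00741) and fell by 0.67 (adjusted p = 0.00648). PSMD3 (chr17:39980807-39997959), one of the genes with the antioxidant response element core, was at 139 and 145 CPM in WT, 197 and 208 in AM and 143 and 128 in 6WP cells. PSMD12, another of them, was at 57.7 and 56.3 in WT, 81.2 and 76.0 in AM and 55.0 and 47.2 in 6WP cells. PSMD11 (chr17:32444379-32483319), which holds the lid to the core, was at 140.2 and 130.3 in WT, 182 and 185 in AM and 124 and 108 in 6WP cells. AM was highest in all 3 genes, and for PSMD11 and PSMD12 both 6WP libraries lay below both WT libraries. Log2 fold changes in AM against WT were 0.51 for PSMD3 (adjusted p = 0.0186), 0.46 for PSMD12 (adjusted p = 0.0336) and 0.44 for PSMD11 (adjusted p = 0.0325). In 6WP against AM they were −0.58 for PSMD3 (adjusted p = 0.0108), −0.62 for PSMD12 (adjusted p = 0.0122) and −0.66 for PSMD11 (adjusted p = 0.00819). PSMD8 (chr19:38374563-38383850) was at 165 and 167 CPM in WT, 243 and 254 in AM and 223 and 179.7 in 6WP cells. Its 6WP libraries lay above both WT libraries. PSMD8 rose by a log2 fold change of 0.58 in AM against WT (adjusted p = 0.0202) and was at −0.30 in 6WP against AM (adjusted p = 0.118).

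The members outside the 20S core and 19S regulator moved less uniformly. None of the 3 chaperones that assemble the 19S base, PSMD5, PSMD9 and PSMD10, passed in edgeR's test, with PSMD10 in AM against WT nearest to the threshold (adjusted p = 0.08), and their median log2 fold change was 0.29 in AM against WT. PSME1 and PSME2 form the PA28 ring that caps the core after interferon signalling, and they are neighbours on chromosome 14. PSME1 (chr14:24136163-24138967) was at 183.5 and 184 CPM in WT, 153 and 168 in AM and 179 and 142 in 6WP cells. PSME2 (chr14:24143362-24147570) was at 77.5 and 76.8 in WT, 109 and 120.0 in AM and 76.0 and 59.03 in 6WP cells. The AM libraries lay below both WT libraries for PSME1 and above them for PSME2. PSME2 rose 1.48-fold in AM against WT (adjusted p = 0.0298) and fell by 0.76 on the log2 scale in 6WP against AM (adjusted p = 0.0106), while PSME1 was at 0.872-fold in AM against WT (adjusted p = 0.312) and had a log2 fold change of 0.00 in 6WP against AM (adjusted p = 0.995). PSME2 has 6 annotated pseudogenes and shares exon sequence with other genes on both strands, and PSME1 shares it with EMC9 on the opposite strand. The difference between PSME1 and PSME2 was not tested.

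PSME3 encodes PA28 gamma, a nuclear cap, and PSME4 encodes PA200, a nuclear cap known from acetylated histones and DNA repair. PSME3 (chr17:42824385-42843760) was at 229 and 218 CPM in WT, 294 and 285 in AM and 187.0 and 186.9 in 6WP cells. The 3 groups did not overlap, with 6WP lowest. It rose 1.296-fold in AM against WT (adjusted p = 0.0368) and fell by 0.63 on the log2 scale in 6WP against AM (standard error 0.10, adjusted p = 0.00672). PSME4 (chr2:53864069-53970993) was at 96.1 and 93.7 CPM in WT, 105 and 91.7 in AM and 66.3 and 69.6 in 6WP cells. AM overlapped WT here, and both 6WP libraries lay below all 4 others. PSME4 fell by 0.53 in 6WP against AM (standard error 0.11, adjusted p = 0.0164) and was at 0.05 in AM against WT (adjusted p = 0.77). PSMF1 (chr20:1113240-1189415), the inhibitor PI31, was at 133 and 132 CPM in WT, 164 and 167 in AM and 176 and 161 in 6WP cells. Both AM and 6WP libraries lay above WT and overlapped each other. None of its comparisons passed, with log2 fold changes of 0.32 in AM against WT (adjusted p = 0.0662), 0.35 in 6WP against WT (adjusted p = 0.104) and 0.03 in 6WP against AM (adjusted p = 0.867).

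Between treated and starting cells, 6WP against WT, no member passed the quasi-likelihood test of edgeR (0 of 40), where 3% of all tested genes were called, 1.63% higher and 1.37% lower. At an unadjusted p under 0.05 there were 4 members, and DESeq2, which called 7.91% of all genes it tested, called 2, PSMD1 and PSME4, both lower. The median log2 fold change over the members was 0.00, beside 0.01 over all tested genes, and the standard error of a member lay between 0.0983 and 0.194. Both 6WP libraries were above both WT libraries in 6 members and below in 8, where 25.5% and 25.2% of all tested genes lay so. The smallest p-values belonged to PSME4 (log2 fold change −0.48, standard error 0.11, adjusted p = 0.0622), PSMD1 (−0.43, standard error 0.10, adjusted p = 0.0669) and PSMF1 (0.35, standard error 0.10, adjusted p = 0.104). Among the 20S and 19S subunits, PSMA6 (0.26, adjusted p = 0.256) and PSMD8 (0.28, adjusted p = 0.237) lay farthest above their medians, and PSMA2 (−0.16, adjusted p = 0.445) and PSMD1 farthest below. The 6WP libraries did not sit alike: 32 of the 40 genes were higher in 6WP replicate 1 than in replicate 2, with a median log2 difference of 0.17 and extremes of 0.65 for PSMB3 and −0.23 for PSMD5. Without 6WP replicate 1, 10 members were called, 9 of them lower, and without 6WP replicate 2, 10 members, 7 of them higher. These fits called 25.2% and 26% of all tested genes, so that 10 of 40 members is near the background.

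The 20S core and the 19S regulator were compared class by class. Over all tested genes, 7.74% were called higher in AM against WT and 9.68% lower in 6WP against AM. In AM against WT 11 of 14 core subunits and 14 of 17 regulator subunits rose, with median log2 fold changes of 0.50 and 0.51. In 6WP against AM 11 and 13 fell, with medians of −0.53 and −0.58, and in 6WP against WT none was called in either class, with medians of 0.01 and −0.05. By library, the core median relative to the WT mean was 0.45 and 0.55 in AM and 0.08 and −0.07 in 6WP cells, and the regulator median was 0.51 and 0.55 in AM and 0.01 and −0.15 in 6WP cells. The ratio of summed CPM of core to regulator subunits was 1.13 and 1.1 in WT, 1.07 and 1.11 in AM and 1.13 and 1.17 in 6WP cells. These ratios overlapped between WT and AM and between WT and 6WP, while both 6WP ratios lay above both AM ratios. A comparison of 2 libraries against 2 cannot reach an exact permutation p below 0.333. The activator medians were 0.27 and 0.15 in AM, below those of both classes, and −0.15 and −0.38 in 6WP cells. Of these, the value in 6WP replicate 1 lay within the range of the regulator. In 6WP against AM the activator median was −0.58, like that of the regulator. The 4 activators were mixed in AM against WT, from −0.20 for PSME1 to 0.57 for PSME2.

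**Figure D3:**
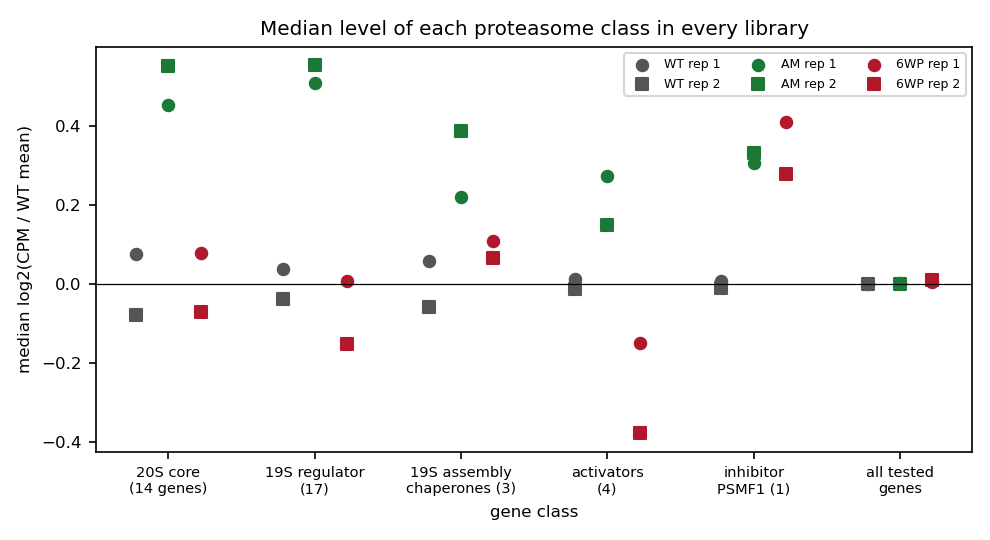
Median over the members of each class of the log2 difference from the WT mean, with 1 point per library (y axis, log2 units) for WT, AM and 6WP cells. The points of the 20S core (0.45 and 0.55) and of the 19S regulator (0.51 and 0.55) in AM cells lie above those of the activators (0.27 and 0.15).

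Per kilobase of the canonical transcript, transcript levels spread widely within each class. In WT cells the core subunits ranged from 35.9 CPM per kb for PSMB2 to 618 for PSMB4, a beta subunit without a protease site, with a median of 144. Next to PSMB4 came PSMB5 at 196. The median of the core subunits was 228 CPM per kb in AM and 146 in 6WP cells. The regulator subunits ranged in WT cells from 9.72 for PSMC1 to 184.5 for PSMD4, with a median of 65.9 CPM per kb, and the median was 92.5 in AM and 62.7 in 6WP cells. PSMB2, PSMB4, PSMC1 and PSMD4 held these extremes in all 3 groups. The length used is that of 1 transcript, so a gene expressed mainly from another transcript is misplaced.

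Beyond role, the members shared other features. Their canonical transcripts were shorter than those of all tested genes (median 1553.5 against 3285 bases), their GC content was like that of the rest (48.1% against 48.5%) and they were more abundant (median log2 CPM 7.28 against 4.53). A length offset, chosen after seeing the data, left 24 members called higher and 1 lower in AM against WT and 27 lower in 6WP against AM. With it, 19.3% and 25.7% of all tested genes were called in these comparisons. The members lie on 15 chromosomes, with 7 on chromosome 14. Exons of another annotated gene overlap 8 members on the same strand and 14 on the opposite strand, and whether counting used strand is not given in the sources used here.

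Other genes of the pathway were taken from lists made by role. Over all tested genes, 17.7% were called in AM against WT, 21.3% in 6WP against AM and 3% in 6WP against WT. Of 6 further assembly factors 3 rose in AM against WT and 2 fell in 6WP against AM, with medians of 0.47 and −0.48. POMP (chr13:28659065-28678959), which matures the core, was at 92.5 and 76.9 CPM in WT, 129.6 and 134 in AM and 85.4 and 72.3 in 6WP cells. As in the core subunits the AM libraries lay above the rest, with log2 fold changes of 0.64 in AM against WT (adjusted p = 0.0186) and −0.74 in 6WP against AM (adjusted p = 0.0101). Of 10 proteasome-associated proteins 3 rose in AM against WT and 1 fell in 6WP against AM, and 1 rose in 6WP against WT. The deubiquitinase USP14 was at 166 and 151 CPM in WT, 262 and 224 in AM and 174 and 155 in 6WP cells, rose in AM against WT (log2 0.61, adjusted p = 0.0163) and fell in 6WP against AM (−0.57, adjusted p = 0.0186). ZFAND2A, an arsenite-inducible protein that binds the 19S regulator, was at 12.3 and 11.9 CPM in WT, 24.3 and 25.1 in AM and 23.2 and 17.97 in 6WP cells. It rose in AM against WT (log2 1.03, adjusted p = 0.00759) and in 6WP against WT (0.77, adjusted p = 0.0463). The ubiquitin receptor ADRM1 was at 61.2 and 69.9 CPM in WT, 91.7 and 103 in AM and 94.2 and 57.5 in 6WP cells, with 6WP overlapping both other groups and an adjusted p of 0.0976 in AM against WT, where it was called higher without either 6WP library.

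Of 7 genes of the NRF1 pathway 2 rose in AM against WT, and 1 rose and 2 fell in 6WP against AM. Over all tested genes 17.7% and 21.3% were called in these comparisons. NFE2L1 itself (chr17:48048329-48061545) was at 136 and 141 CPM in WT, 147 and 153 in AM and 244 and 218 in 6WP cells. The 6WP libraries lay above all others, whereas the subunits were highest in AM cells. NFE2L1 rose 1.67-fold in 6WP against WT (log2 0.74, standard error 0.11, adjusted p = 0.016) and 1.55-fold in 6WP against AM (log2 0.63, adjusted p = 0.00828), and was at 0.11 in AM against WT (adjusted p = 0.491). VCP (chr9:35053928-35072668), the ATPase that extracts NRF1 and other proteins from the endoplasmic reticulum, was at 604 and 590.1 CPM in WT, 800.1 and 781 in AM and 446 and 379 in 6WP cells. The 3 groups of VCP did not overlap, and 6WP was lowest. VCP rose in AM against WT (log2 0.40, adjusted p = 0.047), a call lost with upper quartile normalization, and fell by 0.94 in 6WP against AM (standard error 0.12, adjusted p = 0.00357). HM13, a protease of the endoplasmic reticulum membrane, was at 98.4 and 102 CPM in WT, 141 and 146 in AM and 97.8 and 100.1 in 6WP cells, and rose by 0.52 in AM against WT (adjusted p = 0.0142) and fell by 0.54 in 6WP against AM (adjusted p = 0.0111).

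Of 12 genes of ubiquitin and substrate delivery 2 rose in AM against WT, and 1 rose and 1 fell in 6WP against AM. These counts are near the background, as 17.7% and 21.3% of all tested genes were called. RPS27A, which encodes ubiquitin fused to a ribosomal protein, rose in 6WP against AM (log2 0.58, standard error 0.14, adjusted p = 0.0231). Of 7 immunoproteasome and antigen processing genes 6 could be tested, NLRC5 being too low. PSMB8 and the peptide transporter TAP2, 2 of the 6, fell in AM against WT, where 9.93% of all tested genes were called lower. TAP2 had a log2 fold change of −0.58 in AM against WT (adjusted p = 0.0448) and rose by 0.57 in 6WP against AM (adjusted p = 0.0425). The median of this list was −0.40 in AM against WT, beside 0.49 for the proteasome members. Like the members, the genes named from these lists lost their calls when single libraries were left out. The 7 called in AM against WT lost them without any 1 of the WT or AM libraries (adjusted p from 0.0681 to 0.263), the 7 called in 6WP against AM without AM replicate 1 or AM replicate 2 (0.0553 to 0.238), and NFE2L1 and ZFAND2A in 6WP against WT without any 1 of the WT or AM libraries (0.0757 to 0.406).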

How the data were processed

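Gene expression was measured by RNA-seq in 22Rv1 cells of 3 groups (WT, AM, 6WP), with 2 libraries per group. The authors prepared TruSeq stranded libraries, sequenced them single end and, per the methods and the submitters' processing notes, used STAR 2.5.3a (hg38), StringTie 1.3.3, featureCounts 1.5.3, TMM normalization and edgeR 3.22.3 in R 3.5.0. The annotation, strand setting and low-count filter are not given in the sources used here. The table that the authors deposited holds whole-number read counts for each symbol, not normalised, and 0 of its columns were left out.

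These counts were analysed in R 4.3.3 and edgeR 4.0.16 (filterByExpr, TMM, quasi-likelihood F test on all 6 libraries, two-sided, 3 comparisons, common dispersion 0.0173). p-values were adjusted over the 14672 tested genes by the Benjamini-Hochberg method, and a gene was called at an adjusted p under 0.05. CPM values are TMM normalised. The fit was tested on simulated data. The members and lists were chosen with earlier results of these data known. Members given with values per library were the 20 called members with the smallest p-values, PSMB5, PSMB6, PSMB7, PSMB10, the activators and inhibitor, the 3 smallest p-values in 6WP against WT and the subunits farthest from their class median there. Of the lists outside the members, up to 3 called genes per direction and comparison were named, with NFE2L1, PSMB8, PSMB9 and ADRM1 whatever their p. Positions and canonical transcript lengths are from GENCODE 44 on GRCh38, which may differ from the authors' annotation (93.5% of tested genes matched). Alternatives were DESeq2 1.42.0 and its size factors, upper quartile normalization, library size only, other filters, leaving out the group not compared, a replicate block, leaving out each library and, chosen after seeing the data, offsets for transcript length and GC content (loess, span 0.5).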

Additional observations from a re-analysis of the deposited data

How the results depend on the processing

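Over the alternatives no named member that was called with all libraries changed direction, and of the repeated log2 fold changes of the named members 1008 kept their side of the threshold, 153 lost the call and 39 gained it. In AM against WT the count of called members (28) was 14 with library size only (16.3% of all genes called) and 16 with upper quartile normalization (17.2%). With only the groups compared it was 37, 36 of them higher, where 46.5% of all genes were called. In 6WP against AM (28) it was 17 with only the groups compared and from 1 to 33 with 1 library left out. In 6WP against WT (0) it was 2 with DESeq2 (7.91% of all genes called), 1 with no filter beyond 1 count (4.37%) and 1 with the transcript length offset (3.7%). Fits with 1 library left out had 1 library in a group, and their class medians are given below. The 10 calls without 6WP replicate 1 or 6WP replicate 2 came from fits that called 25.2% and 26% of all genes, and PSMB3 was called lower in the first and higher in the second. Without 1 WT or AM library, calls in AM against WT dropped among the members and over all genes.

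The 19S median was 0.42 in AM against WT and −0.49 in 6WP against AM with upper quartile normalization, which moved the median of all genes to −0.09 and 0.14, and 0.035 in 6WP against WT with the GC content offset. The 20S median in 6WP against WT was −0.11 with the transcript length offset. With 1 library left out, the 19S median ran from −0.68 to −0.53 in 6WP against AM, from −0.17 to 0.016 in 6WP against WT and from 0.50 to 0.58 in AM against WT, and the 20S median from −0.72 to −0.45, from −0.087 to 0.055 and from 0.44 to 0.58. The cause of these shifts was not tested.

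Same-numbered replicates did not deviate together (correlations of 0.087, 0.040 and −0.021 between groups). The fit with a replicate block called 27 members in AM against WT, 27 in 6WP against AM and 0 in 6WP against WT. It called 16.9%, 20.9% and 2.68% of all tested genes in that order. It lost PSME3 in AM against WT and PSMB4 and PSMB7 in 6WP against AM, and gained PSMC3 there. Outside the members it lost VCP in AM against WT and ZFAND2A in 6WP against WT. Each member had at least 2553 counts over all libraries, and groups of 2 limit the precision.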
